A study of Mus musculus with 36 samples.

Results

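Hypothalamic expression of 9 genes around the glucocorticoid receptor was followed after peripheral injection of TNFα and IL-6. The set holds both corticosteroid receptors, Nr3c1 and Nr3c2, and 7 genes known to respond to glucocorticoid hormone in brain: Fkbp5, Sgk1, Tsc22d3, Zbtb16, Ddit4, Cdkn1a and Pdk4. Members were taken by symbol, as array transcript clusters annotated to that gene alone. Each of the 9 had 1 such cluster. They are 9 of 18820 genes named on the array and 9 of the 15049 that exceeded an intensity of 20 on 3 or more arrays. No difference between groups entered this rule, although earlier results of these data were known when the members were chosen.

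Glucocorticoids (corticosterone in mice) are released by the adrenal gland when the hypothalamus and pituitary drive it, and cytokines in the circulation are a known trigger of this axis. The hormone enters cells and binds the glucocorticoid receptor, which is held ready by chaperones, moves to the nucleus and switches its target genes on or off at short palindromic elements. In brain the mineralocorticoid receptor binds the same hormone with higher affinity, and some of the target genes (Fkbp5, Tsc22d3, Sgk1) feed back on the receptor or on inflammatory signalling.

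The mice were C57BL/6 males of approximately 20 g, and their age was not given. Each received 50 µl intraperitoneally before the dark phase, and the hypothalamus was taken 5 h later. Control mice received saline, TNF mice 15 pg TNFα, IL-6 Low mice 50 pg IL-6 and IL-6 High mice 800 pg IL-6, while mice of both combined groups received 15 pg TNFα together with 50 pg IL-6 (TNF + IL-6 Low) or 800 pg IL-6 (TNF + IL-6 High). Of 12 mice per group, 6 were used for arrays, 1 mouse to each Affymetrix Mouse Gene 1.1 ST array (whole-transcript arrays that give 1 log2 intensity per transcript cluster). The sample titles call the TNFα treatment low, although a single TNFα dose was given.

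TNF replicate 4 was left out, so the TNF group has 5 arrays and the set 35. Over all clusters its median r to the rest was 0.270, whereas each remaining array had a median r of 0.972 to 0.988. Control replicates 5 and 6 carry mouse numbers that differ between the sample label and the array name. They were kept as Control, the group both sources give. Markers of the hypothalamus (12 of 14 listed genes measured, among them Nkx2-1, Pmch and Avp) had a mean log2 intensity between 6.91 and 8.21 on every array. Pituitary markers (6 of 8 measured) were at 10.58 on TNF + IL-6 Low replicate 3 and at 6.87 or lower on every other array used. Meningeal fibroblast markers (10 of 10 measured) had a mean log2 intensity of 6.74 ± 0.68 (SD, n = 6) in Control and 6.17 to 6.58 in the treated groups. The part of such tissue in the differences from Control was not tested. In whole hypothalamus, fewer cells of a type and less RNA per cell cannot be told apart.

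The receptors differed little between groups. Nr3c1 encodes the glucocorticoid receptor itself. Its log2 intensity in Control ranged from 8.13 to 8.49 (median 8.28, n = 6). The 5 TNF arrays were at 8.14, 8.14, 8.19, 8.44 and 8.54. The lowest, median and highest arrays were 7.85, 8.36 and 8.48 after IL-6 Low, whereas IL-6 High gave 7.87, 8.31 and 8.52. Every treated range overlapped that of Control. TNFα combined with the lower IL-6 dose gave 8.30, 8.39 and 8.51, and with the higher dose 7.98, 8.24 and 8.37, so that these neighbouring groups overlapped as well. The log2 differences from Control lay between -0.10 for TNF + IL-6 High and 0.09 for TNF + IL-6 Low. The 95% confidence intervals of these 5 differences together spanned -0.31 to 0.29. The difference of the higher against the lower IL-6 dose, both with TNFα, was -0.20 (SE 0.10, unadjusted p = 0.056, adjusted p = 0.845 by limma).

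Nr3c2, which encodes the mineralocorticoid receptor, was the steadiest of the 9 genes between mice. Control arrays ranged from 6.60 to 7.03 (median 6.99), and the lowest belonged to Control replicate 5. The TNF arrays were at 6.69, 6.89, 6.92, 6.96 and 7.31. Group medians in the other 4 treated groups were between 6.89 and 6.94. The differences from Control lay between -0.04 and 0.07, with confidence intervals that together spanned -0.22 to 0.25.

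Fkbp5, a co-chaperone of HSP90 that lowers the receptor's affinity for hormone, had group means of 7.75 to 7.88. The Control mean was the highest, at 7.88 ± 0.18 (SD, n = 6). All 5 treated means were below it, by -0.02 in IL-6 High to -0.13 in TNF + IL-6 High. The lowest unadjusted p among these was 0.301. The highest single array was TNF + IL-6 Low replicate 1 at 8.41, while the other 5 arrays of its group lay at 8.09 or lower.

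Sgk1, the serum- and glucocorticoid-regulated kinase, which acts on ion channels and transporters, varied most. Its Control arrays ran from 7.05 to 8.79 with a median of 8.02. The TNF arrays were at 7.06, 7.61, 7.66, 8.22 and 8.24. High and low arrays occurred in both groups. The lowest, median and highest arrays were 6.82, 7.50 and 8.72 after IL-6 Low, whereas IL-6 High gave 7.47, 8.14 and 8.72. With TNFα, the lower IL-6 dose gave 7.35, 8.00 and 8.36 and the higher dose 7.14, 8.00 and 8.57. Each of these ranges overlapped that of Control, and within IL-6 High replicates 1 to 3 were at 7.47 to 7.62 while replicates 4 to 6 were at 8.65 to 8.72. By group mean, IL-6 High came first (8.11), ahead of Control (8.03), both combined groups (7.96 each), TNF (7.76) and IL-6 Low (7.69). Neighbours in this order differed by less than the larger of their SDs. The largest differences from Control were -0.34 under IL-6 Low (SE 0.30, adjusted p = 1.00 by limma) and -0.27 under TNF (SE 0.31, adjusted p = 0.943). Single arrays moved both by over 1.5 times: the IL-6 Low difference was -0.55 without IL-6 Low replicate 5 and -0.17 without IL-6 Low replicate 2, and the TNF difference -0.47 without Control replicate 5 and -0.10 without TNF replicate 3. Its confidence intervals, from -0.94 to 0.68, were the widest of the 9 genes.

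The sequence around the Sgk1 starts is shown because the full palindromic element of the glucocorticoid receptor lies in it. Promoter windows from RefSeq (GRCm38.p6), 250 bases before to 50 after each start, were available for 7 of the 9 genes (15 windows, 6 of them of Sgk1). They were searched on both strands for AGAACA, 3 bases of any kind and TGTTCT, which reads the same on either strand, and for its hexamers AGAACA and TGTTCT, which are each other's reverse complement and occur within the full element too. Of 32851 windows of all genes, 3 (0.00913%) held the full element, each of a different gene, and 6233 (19.0%) held a hexamer. Sgk1 was 1 of these 3 genes. The 250 bases before that start, at chr10:21993640-21993889 on the plus strand, hold the element at 21993701 to 21993715, whose first base lies 189 bases before the start. Capitals mark the hexamers, including a separate one further upstream:
Sgk1: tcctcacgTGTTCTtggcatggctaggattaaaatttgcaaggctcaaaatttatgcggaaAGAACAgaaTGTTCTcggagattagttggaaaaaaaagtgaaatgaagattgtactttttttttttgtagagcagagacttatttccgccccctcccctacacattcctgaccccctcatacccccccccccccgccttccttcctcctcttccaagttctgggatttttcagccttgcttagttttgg

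A hexamer alone was found in a pair of further Sgk1 windows and in 1 of 3 windows of Tsc22d3. These stretches are shown in the same way, each 5′ to 3′ on the strand of its gene, with the hexamer in capitals. The Sgk1 stretches lie at chr10:21881977-21882006 and chr10:21992198-21992222 on the plus strand, with the hexamer 195 and 13 bases before the start. The Tsc22d3 stretch lies at chrX:140600690-140600719 on the minus strand, with the hexamer 185 bases before the start:
Sgk1 upstream start: aagggaatccgtTGTTCTgtgttttctgtg
Sgk1 further start: aaagtgggactcAGAACAgaaaggc
Tsc22d3: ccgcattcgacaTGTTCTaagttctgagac

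In all, 4 of the 15 windows of these genes held a hexamer. Among 33 windows of 26 other glucocorticoid-induced genes, 0 held the full element and 4 a hexamer. A match describes the letters of the window and is not a binding site, and windows without one say nothing about the receptor.

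Tsc22d3 encodes GILZ, a leucine zipper protein that binds and restrains inflammatory transcription factors. Its Control arrays ranged from 7.26 to 7.77 (median 7.46). The TNF arrays split into 3 at 7.74 to 7.76 (replicates 1, 2 and 5) and a pair at 7.14 and 7.24 (replicates 6 and 3). The IL-6 High group had the highest mean, 7.61 ± 0.12, which was 0.13 above Control (SE 0.11, adjusted p = 1.00 by limma). The other 4 differences were within -0.02 and 0.04.

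Zbtb16, a zinc finger transcription factor also known as PLZF, ranged from 7.74 to 8.83 in Control, with a median of 8.25. Its means ran from 8.07 ± 0.28 in TNF to 8.41 ± 0.21 in IL-6 High. The difference from Control was -0.19 in TNF (SE 0.17) and 0.15 in IL-6 High (SE 0.16), and within -0.05 and 0.02 in the other 3 groups. Averaged over the IL-6 levels, TNFα gave -0.16 (SE 0.09, unadjusted p = 0.097, adjusted p = 0.804).

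Ddit4 and Cdkn1a also answer to signals other than glucocorticoid. Ddit4 (REDD1), an inhibitor of mTORC1 that also answers to hypoxia and energy stress, had a Control median of 6.94 (6.79 to 7.25) and a lowest treated median of 6.77, in TNF + IL-6 Low. Its differences from Control ran from -0.14 (TNF + IL-6 Low) to 0.03 (IL-6 High), with a lowest unadjusted p of 0.224. Cdkn1a, which encodes the cell cycle inhibitor p21 and is also a p53 target, had a Control median of 7.47 (7.21 to 7.87). Its differences ran from -0.14 to 0.04. The lowest array of Cdkn1a was TNF + IL-6 Low replicate 5 at 6.75, below the 7.15 of replicate 2 of the same group.

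Pdk4 encodes a kinase that blocks pyruvate dehydrogenase and so spares glucose, and it is also known to be induced by fasting. It was the gene with the largest differences relative to its spread. The Control arrays ranged from 5.73 to 6.24 with a median of 5.77. The IL-6 Low arrays ranged from 5.40 to 5.85 with a median of 5.47. The arrays of TNF + IL-6 Low ran from 5.09 to 6.18 with a median of 5.45. In both groups that received 50 pg IL-6, 5 of 6 arrays were below the lowest Control array, and 1 array was inside the Control range (IL-6 Low replicate 5 at 5.85, TNF + IL-6 Low replicate 1 at 6.18). The TNF arrays were at 5.33, 5.47, 5.93, 6.14 and 6.19. The lowest, median and highest were 5.53, 5.91 and 6.30 after IL-6 High alone, whereas IL-6 High with TNFα gave 5.35, 5.62 and 5.90. By group mean, IL-6 High came first (5.90 ± 0.25), ahead of Control (5.87 ± 0.20), TNF (5.81 ± 0.39), the combination with the higher dose (5.62 ± 0.21), that with the lower dose (5.53 ± 0.36) and IL-6 Low (5.52 ± 0.17). Neighbours in this order differed by less than the larger of their SDs.

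**Figure D1:**
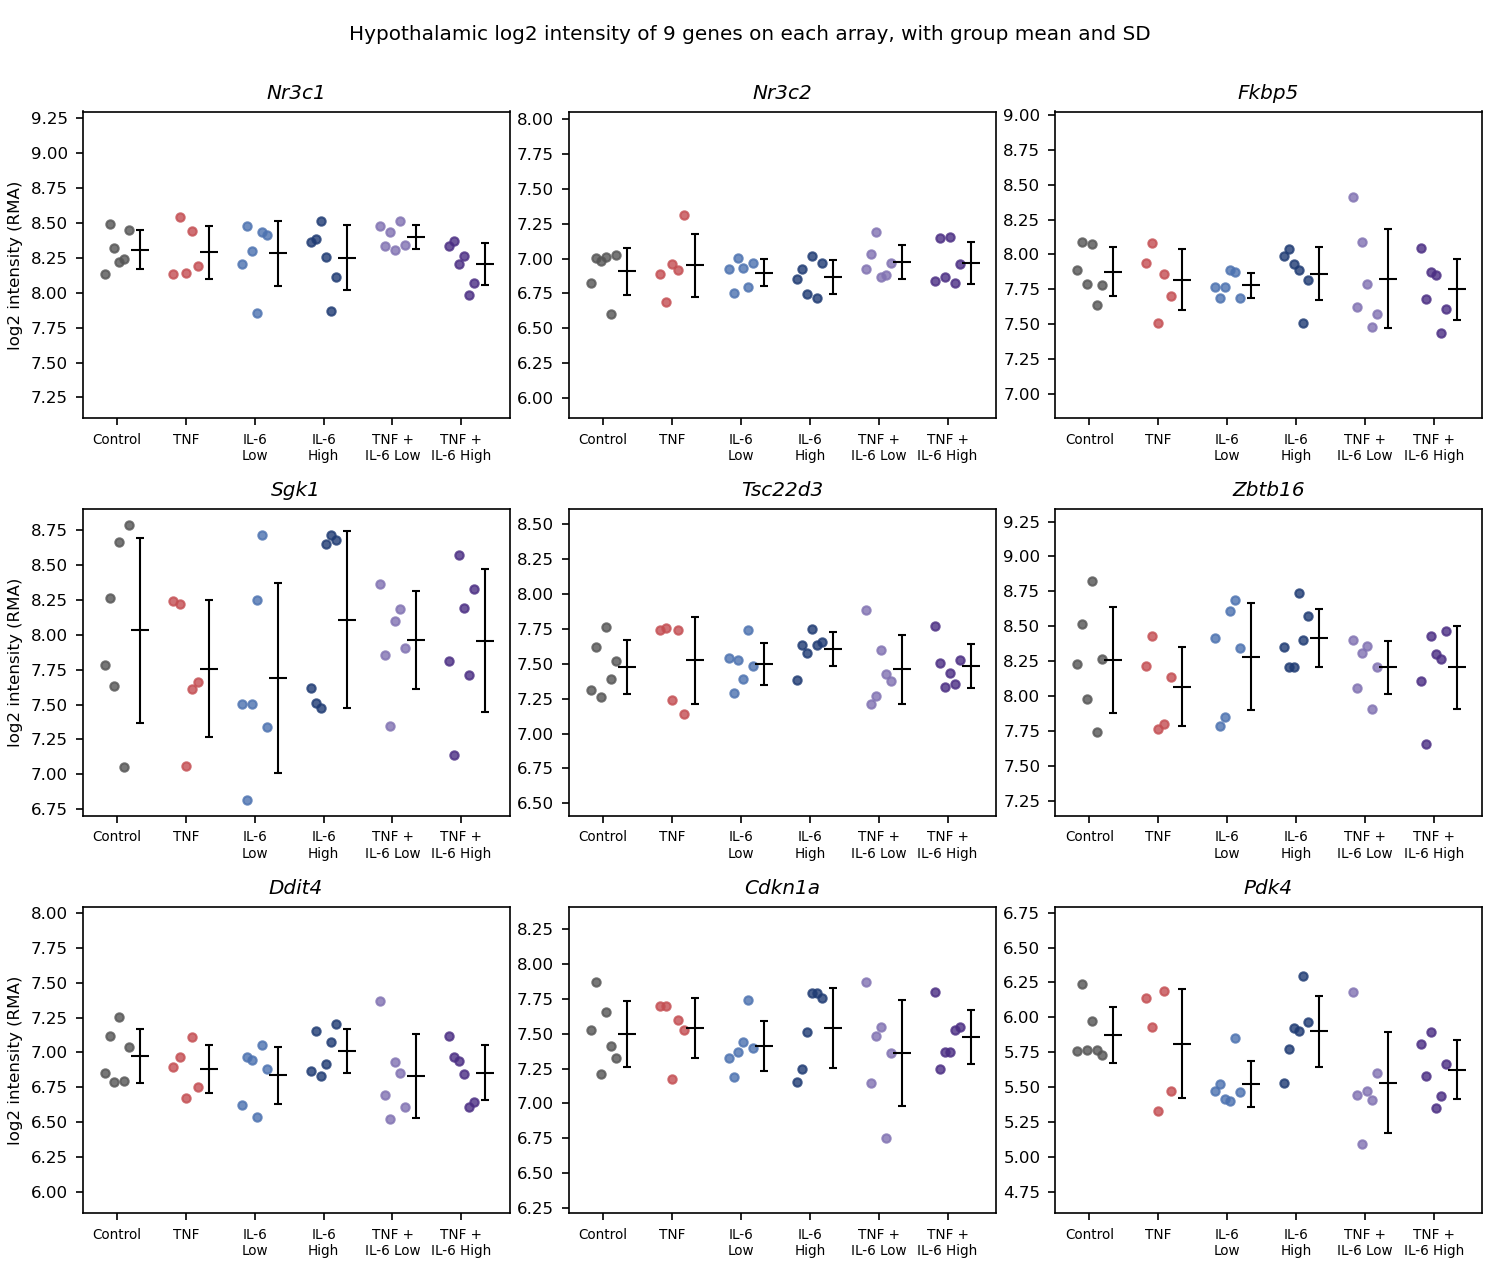
Log2 intensity of the 9 genes (y axis, 2.2 log2 units in every panel) on each of 35 arrays (points) in the 6 groups (x axis), with the group mean and SD beside them in black. Sgk1 spreads from 6.82 to 8.79 across and within groups, Nr3c1 from 7.85 to 8.54 and Nr3c2 from 6.60 to 7.31. In each group given the lower IL-6 dose, 5 of 6 Pdk4 arrays lie below the Control arrays.

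Each treated group was compared with Control in 1 linear model fitted to all 15049 genes, to ask whether cytokine injection changed these genes. No member passed an adjusted p of 0.05 in any of the 5 groups. No gene of the whole array did either, so that 0% were called in each comparison. At an unadjusted p under 0.05, 0 of 9 members were found for TNF (5.29% of all genes), 1 of 9 for IL-6 Low (1.40%) and 0 for IL-6 High (2.07%). With TNFα combined, 1 of 9 was found at the lower IL-6 dose (9.58% of all genes) and 0 at the higher (2.05%). Both were Pdk4. For the mean of the 5 treated groups the count was 0 of 9 (3.08% of all genes). In the moderated F test of limma for any difference among the groups it was again Pdk4 alone (adjusted p = 1.00), against 3.01% of all genes.

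The ranges of no member were separate from those of Control in any treated group. Among all genes, ranges were separate for 0.246% with TNF, 0.0664% with IL-6 Low and 0.0332% with IL-6 High. With TNFα combined the shares were 0.193% at the lower IL-6 dose and 0.159% at the higher. No neighbours in the order of group means, of 45 such pairs over the 9 genes, differed by more than the larger of their SDs. The 5 comparisons share the same 6 Control arrays, so a high or low Control mouse moves each of them.

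The Pdk4 difference from Control was -0.35 on the log2 scale for IL-6 Low (SE 0.15, 95% confidence interval -0.65 to -0.05, unadjusted p = 0.023, adjusted p = 1.00). For TNF + IL-6 Low the difference was -0.34 (SE 0.15, interval -0.64 to -0.04, unadjusted p = 0.027, adjusted p = 0.511). For the combination with the higher dose it was -0.25 (interval -0.55 to 0.05), for TNF -0.06 and for IL-6 High 0.03. Averaged over both TNFα levels, 50 pg IL-6 gave -0.32 (SE 0.11, interval -0.53 to -0.10, unadjusted p = 0.006, adjusted p = 0.806), where 5.92% of all genes had an unadjusted p under 0.05. Of the 9 members, Pdk4 alone did. The values did not follow the IL-6 dose. Without TNFα, IL-6 High was above IL-6 Low by 0.38 (SE 0.15, interval 0.08 to 0.68, unadjusted p = 0.015, adjusted p = 0.999), a difference in which 1.45% of all genes, and Pdk4 alone of the members, had an unadjusted p under 0.05. With TNFα, that dose difference was 0.09 (interval -0.21 to 0.39). None of these passed the adjusted threshold.

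Single arrays carried weight in the Pdk4 differences. Without TNF + IL-6 Low replicate 3, which had the pituitary markers and the lowest Pdk4 value of all arrays, the TNF + IL-6 Low difference was -0.25 (unadjusted p = 0.099). Without TNF + IL-6 Low replicate 1 it was -0.47 (unadjusted p = 0.002, adjusted p = 0.218), the lowest adjusted p that any member reached under any alternative. Without Control replicate 2, the highest Control array, the IL-6 Low difference was -0.28 (unadjusted p = 0.076) and that of TNF + IL-6 Low -0.27 (unadjusted p = 0.087). The latter also lost its unadjusted p under 0.05 without TNF + IL-6 Low replicate 5, and the dose difference without TNFα did so without IL-6 High replicate 5 (0.30, unadjusted p = 0.056). Over the 35 arrays Pdk4 had r = -0.39 and rho = -0.24 with the pituitary markers (adjusted permutation p = 0.303, r = -0.25 without the 2 farthest arrays).

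**Figure D2:**
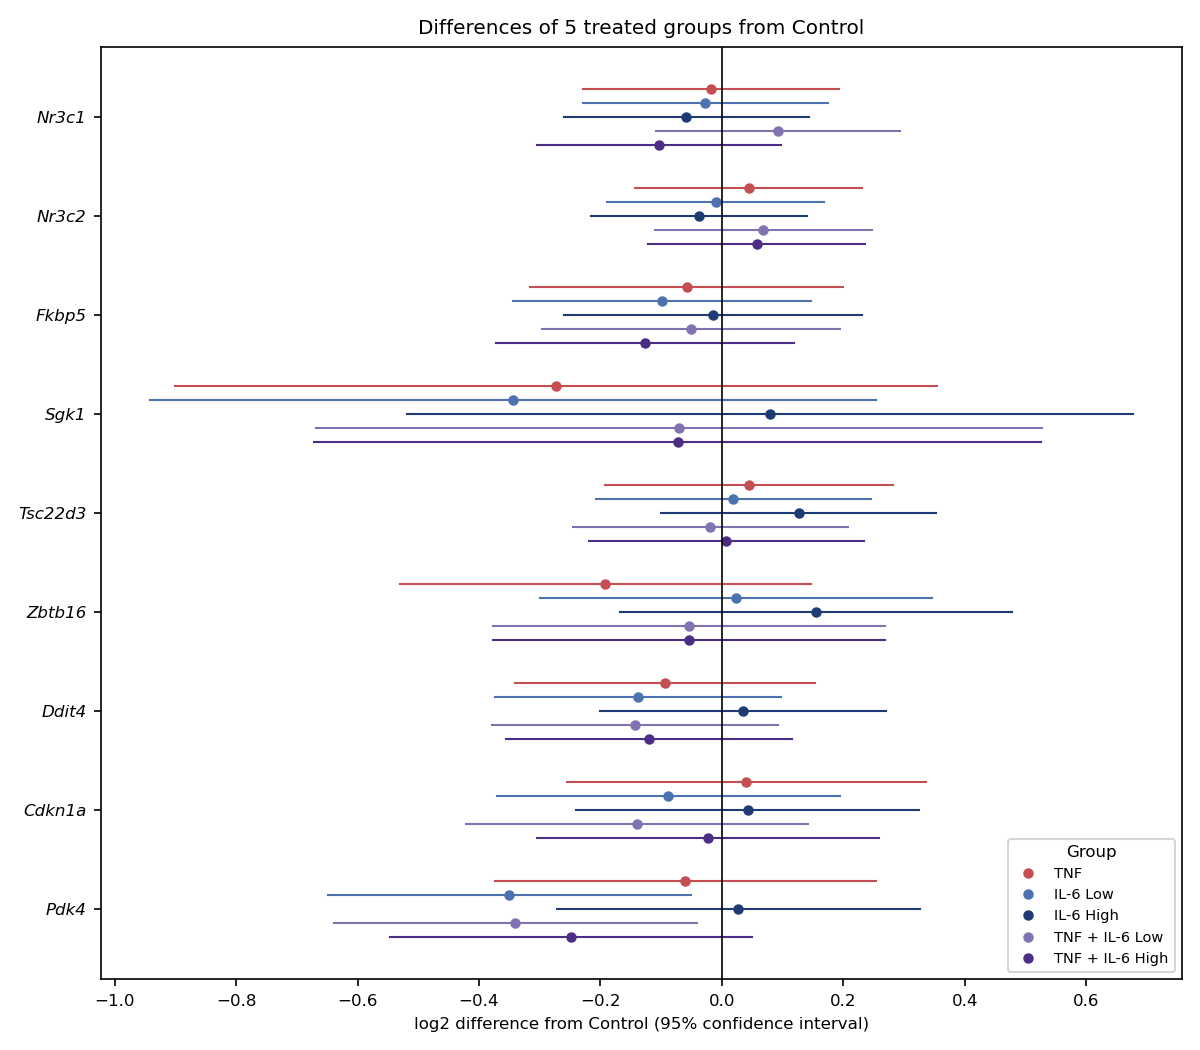
Log2 difference from Control (x axis) of the 9 genes (rows) in 5 treated groups (coloured points), with 95% confidence intervals from the linear model (lines). All intervals include 0 except those of Pdk4 for IL-6 Low (-0.65 to -0.05) and for its combination with TNFα (-0.64 to -0.04), and those of Sgk1 are the widest.

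The median difference from Control over the 7 response genes was -0.06 for TNF, -0.10 for IL-6 Low and 0.04 for IL-6 High. It was -0.07 for each of the combined groups. The medians over all genes tested were between -0.02 and 0.01. Below 0 were 5 of 7 genes for TNF, 5 for IL-6 Low and 1 for IL-6 High, and with TNFα combined 7 at the lower IL-6 dose and 6 at the higher. The median log2 intensity of the 7 genes on an array had an SD of 0.21 within groups. For that level, the SE of a difference between groups of 6 arrays is 0.12. It is the level of the middle gene, so this SE is not that of the median difference. No test was made of the list. The median differences moved when single arrays were left out. For TNF + IL-6 Low the value was -0.17 without its replicate 1, with 7 of 7 genes below 0, and -0.01 without Control replicate 4. For TNF it ran from -0.12 (without TNF replicate 5) to 0.02 (without TNF replicate 3). The IL-6 Low median ran from -0.15 (without IL-6 Low replicate 5) to -0.06 (without Control replicate 2), whereas that of IL-6 High ran from -0.0014 (without Control replicate 3) to 0.12 (without IL-6 High replicate 1). For the combination with the higher dose it ran from -0.16 (without Control replicate 5) to 0.01 (without Control replicate 4). Leaving out both Control arrays of differing mouse number gave -0.17 for IL-6 Low and TNF + IL-6 Low, and -0.15 for TNF + IL-6 High. These were the lowest for those groups among the alternatives other than single arrays. The lowest was -0.18 for TNF (all 36 arrays) and -0.02 for IL-6 High (array weights). The highest lay between -0.09 for IL-6 Low and 0.04 for IL-6 High. For departure from additive effects of TNFα and IL-6, 0 of all 15049 genes, members included, had an adjusted p under 0.05. Among the members the largest size was 0.55 for Sgk1 (SE 0.43, adjusted p = 0.991 by limma).

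Several response genes varied widely between mice of the same group. Since array noise depends on the level, each SD is placed among the 1000 genes closest in level. The SD within groups of Sgk1 was 0.57, at percentile 99.6 of these. Its highest array, Control replicate 6, was 3.92-fold above the lowest, IL-6 Low replicate 2. Zbtb16 followed with an SD of 0.30 (percentile 97.3), Pdk4 with 0.27 (91.3), Cdkn1a with 0.26 (92.8) and Fkbp5 with 0.22 (88.5). Ddit4 was at 0.21 (80.7) and Tsc22d3 at 0.20 (82.2), close to Nr3c1 with 0.18 (76.2). Nr3c2 had the lowest SD, 0.15 (39.1).

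Many pairs of response genes were correlated from mouse to mouse. After the group means were removed, all 36 pairs among the 9 genes were correlated over the 35 arrays, with permutation tests that shuffled arrays within groups and Benjamini-Hochberg adjustment over the 36 pairs. With an adjusted permutation p under 0.05, 17 pairs were positively correlated and 0 negatively. Of these, 15 were among the 21 pairs of response genes. By Spearman's rho, 14 of the 36 pairs passed. Both genes of a pair share RNA sample and hybridisation, and the 95th percentile of r over the 15048 other genes was 0.62 for Nr3c1, 0.51 for Nr3c2, 0.48 for Fkbp5, 0.32 for Sgk1, 0.53 for Tsc22d3, 0.32 for Zbtb16, 0.53 for Ddit4, 0.39 for Cdkn1a and 0.47 for Pdk4. Of the 17 pairs, 11 exceeded this percentile of both genes and 4 that of 1 gene (Sgk1 with Tsc22d3, Fkbp5 with Zbtb16, Fkbp5 with Ddit4, Tsc22d3 with Zbtb16). The 2 pairs of Nr3c1 exceeded neither.

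The closest pair was Sgk1 and Zbtb16, with r = 0.77 and rho = 0.75 (permutation p = 1e-05 for both, the smallest that 100000 permutations can give, adjusted p = 0.00036). Without the 2 arrays farthest from the median of Sgk1, r was 0.72. Sgk1 ranked 3rd of 15048 genes for Zbtb16, and Zbtb16 ranked 9th for Sgk1.

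Tsc22d3 had 3 close partners in Pdk4, Ddit4 and Cdkn1a. Tsc22d3 and Pdk4 had r = 0.74 (rho = 0.70, adjusted permutation p = 0.00045 and 0.00043), and each ranked 5th for the other. Tsc22d3 and Ddit4 had r = 0.72 (rho = 0.65), Ddit4 and Pdk4 r = 0.67 (rho = 0.58), Tsc22d3 and Cdkn1a r = 0.65 (rho = 0.68), and Cdkn1a and Pdk4 r = 0.64 (rho = 0.66), all with an adjusted permutation p of 0.0032 or lower for r and for rho. Ddit4 ranked 14th for Tsc22d3 and Tsc22d3 13th for Ddit4. Cdkn1a also followed Zbtb16 (r = 0.61, rho = 0.66, adjusted permutation p = 0.00045).

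Sgk1 was also linked to Tsc22d3 (r = 0.51, rho = 0.52), to Pdk4 (r = 0.51, rho = 0.47) and to Cdkn1a (r = 0.49, rho = 0.54), with adjusted permutation p values of 0.0063 to 0.0111 for r and 0.0070 to 0.0221 for rho. The r of Tsc22d3 and Zbtb16 was 0.40 (rho = 0.48, adjusted permutation p = 0.047) and lost its call in 24 of 40 alternatives. Fkbp5 had r = 0.55 with Tsc22d3 (rho = 0.47, adjusted permutation p = 0.013) and 0.42 with Zbtb16 (rho = 0.45, adjusted permutation p = 0.019). Its r of 0.50 with Cdkn1a (rho = 0.38) and 0.49 with Ddit4 (rho = 0.41) passed as Pearson's r (adjusted permutation p = 0.031 for both) but not as Spearman's rho (adjusted permutation p = 0.095 and 0.058).

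The pairs of response genes that did not pass were Zbtb16 and Ddit4 with r = 0.11 (rho = 0.09, adjusted permutation p = 0.655), Fkbp5 and Sgk1 with 0.21 (0.299), Zbtb16 and Pdk4 with 0.29 (0.130), Sgk1 and Ddit4 with 0.35 (0.086), Fkbp5 and Pdk4 with 0.37 (0.131) and Ddit4 and Cdkn1a with 0.41 (0.082). Whether these correlations were lower than those of the other pairs was not tested.

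Receptor levels were tied to few of the response genes. Nr3c1 and Nr3c2 had r = -0.01 with each other (adjusted permutation p = 0.939). Nr3c1 passed with Ddit4 (r = 0.40, rho = 0.44, adjusted permutation p = 0.033) and, by r alone, with Fkbp5 (r = 0.38, adjusted permutation p = 0.031; rho = 0.37, adjusted permutation p = 0.072). Both calls were lost after quantile normalization or centring of the arrays. Nr3c2 passed with no member, and its largest r was -0.37 with Pdk4 (rho = -0.36, adjusted permutation p = 0.105).

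**Figure D3:**
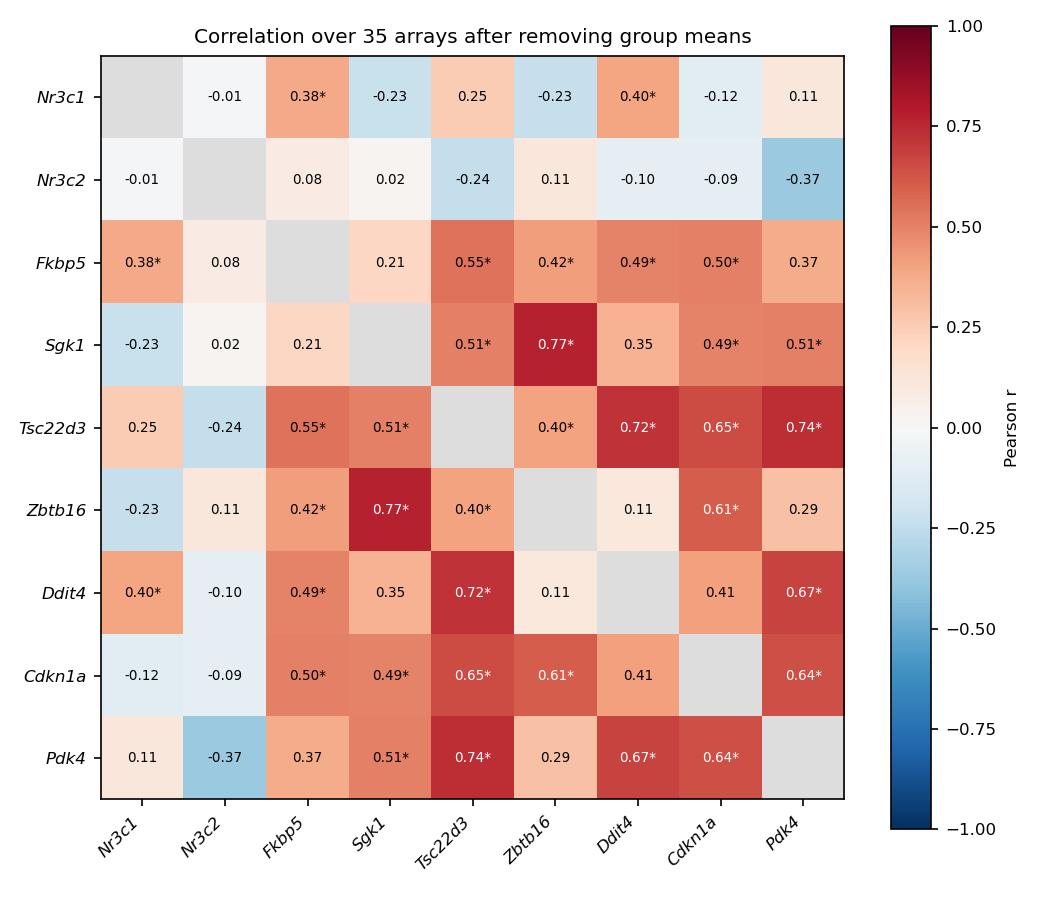
Pearson r of each pair of the 9 genes over 35 arrays after removal of group means (colour scale from -1 to 1, values printed), with an asterisk for an adjusted permutation p under 0.05. The 7 response genes form a block of positive values with Sgk1 and Zbtb16 (0.77) and Tsc22d3 and Pdk4 (0.74) at its top, while the values of Nr3c1 and Nr3c2 lie between -0.37 and 0.40.

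The calls rested in part on a few mice. Without TNF + IL-6 Low replicate 1, 11 pairs passed in place of 17, and leaving out any other single array gave 12 to 19. Without the array with pituitary markers the count was 19. Within the treated groups alone it was 13. Across all 40 alternatives, 10 of the 17 pairs kept their call, namely the 7 with r over 0.6 and those of Sgk1 with Tsc22d3, Pdk4 and Cdkn1a, and 0 changed sign.

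To place single mice, each gene's deviation from its group mean was divided by its SD within groups and averaged over the 7 response genes. TNF + IL-6 Low replicate 1 was highest at 2.03, with 7 of 7 genes above their group mean. IL-6 Low replicate 5 (1.31), Control replicate 4 (1.19) and Control replicate 2 (1.00) followed, each with 7 of 7 genes above. TNF replicate 3 was lowest at -1.44, ahead of Control replicate 5 (-1.02) and Control replicate 3 (-0.86), with 0 of 7 genes above in each. As each score is taken from the mean of its own group, arrays above and below 0 occur in every group by construction.

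**Figure D4:**
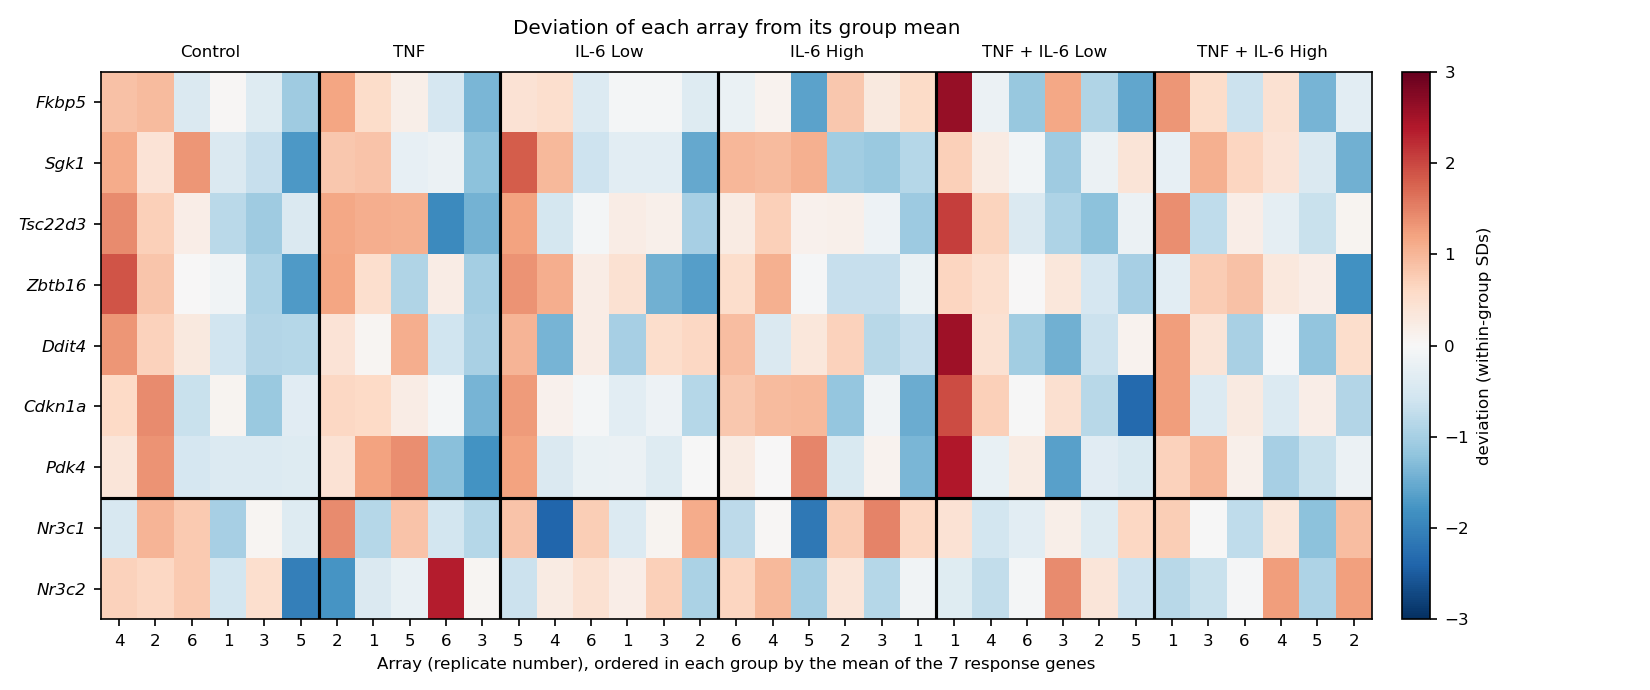
Deviation of each array from its group mean in within-group SDs (colour scale) for the 7 response genes (upper rows) and both receptors (lower rows), with the 35 arrays ordered within each group by the mean of the response genes (x axis, replicate numbers). The ordering itself puts high response genes to the left of each group. All 7 lie above the group mean on TNF + IL-6 Low replicate 1 and none on TNF replicate 3.

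For each gene the genes whose pattern over the 35 arrays was most like it were identified, as a description. Sgk1 was followed most closely by Nfkbia (r = 0.87), the inhibitor of NF-κB, and Polr3e (r = 0.86), a subunit of RNA polymerase III. Zbtb16 was followed by Mertk (r = 0.81), a receptor for the uptake of dying cells, and Aff1 (r = 0.78). Nfkbia and Mertk are on the list of further glucocorticoid-induced genes described below, and the other partners named here are not. What makes these genes vary together was not tested. Cdkn1a was followed by Pnpla2 (r = 0.83), the main triglyceride lipase of fat cells, and Fxyd1 (r = 0.71), a regulator of the sodium pump. Pdk4 was followed by Ndufv2 (r = 0.76), a subunit of respiratory complex I, and Selenok (r = 0.76). Tsc22d3 was followed by Slc25a33 (r = 0.77), a mitochondrial nucleotide carrier, and Snrnp25 (r = 0.75). Ddit4 was followed by Mad2l1 (r = 0.75), of the spindle checkpoint, and Garem2 (r = 0.75), and Fkbp5 by Serpinb6a (r = 0.77), a protease inhibitor, and Mxd4 (r = 0.71). Of the receptors, Nr3c1 was followed by Abce1 (r = 0.87), needed for ribosome recycling, and the ubiquitin ligase Pja2 (r = 0.86), and Nr3c2 by the ubiquitin ligase Ubr2 (r = 0.82) and Arpp21 (r = 0.79).

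Other genes of the pathway were taken from lists by role. In the mean of the 5 treated groups against Control, 0 genes of these lists passed the adjusted threshold. Of 9 receptor chaperones the median difference was 0.04, with Ptges3 (p23) at 0.08 (SE 0.06) and Hsp90aa1 at 0.04. Of 8 coregulators the median was -0.02, with Nrip1 at 0.09 and Ep300 at -0.10. Of 6 genes of steroid access and conversion the median was 0.00, and Hsd11b1, the enzyme that regenerates active hormone in the cell, was at 0.17 (SE 0.14). Of 9 stress axis genes the median was 0.03, with Crhr1, a receptor for the releasing hormone of the axis, at 0.16 (SE 0.10) and Crh itself at 0.10 (SE 0.12). No gene of these 4 lists had an unadjusted p under 0.05 in this comparison. In the 5 single groups, 3 results did, named after their values were seen and none with an adjusted p under 0.05: for TNF (5.29% of all genes) Crhr1 at 0.28 (SE 0.13) and Crhbp, a binding protein of the releasing hormone, at 0.24 (SE 0.12), and for TNF + IL-6 Low (9.58% of all genes) Ptges3 at 0.17 (SE 0.08).

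Of 30 further glucocorticoid-induced genes, 28 were measured. Their median difference was -0.04, against -0.01 for all genes tested, with 23 below 0 and 5 above. At an unadjusted p under 0.05, 1 of 28 was found, against 3.08% of all genes. It was Lyve1 (a hyaluronan receptor of lymphatic vessels and some macrophages), at -0.20 (SE 0.10, unadjusted p = 0.048, adjusted p = 1.00 by limma). Txnip, which limits glucose uptake, was at -0.21 (SE 0.12) and Bcl6 at -0.11 (SE 0.08).

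In many of these 28 genes the deviations from the group means ran the same way as in the response genes. Their r with the mean of the 7 response genes was positive for 28 of 28, against 9572 of all 15049 genes tested. It had a median of 0.45 and a range of 0.02 to 0.70, against a median of 0.08 over all genes tested. The upper 5% of all genes began at 0.42 and held 15 of the 28. This list was chosen with earlier results of these data known, so the count is a description and not an independent test. Klf15 (0.70), Arrdc2 (0.67), Mertk (0.65) and Plin4 (0.63) were highest, named after their values were seen. The count was 9 when Sgk1 or Zbtb16 was left out of the mean, and 12 to 17 when any other response gene was left out of it or any single array was left out. Among all genes the highest r was 0.81, of Hr, a nuclear corepressor (also named after its value was seen), followed by Tsc22d3 at 0.80 against the mean of the other 6.

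Some members also answer to p53, fasting, hypoxia or other stress, and lists for these inputs were described in the same way. The median r was 0.06 for 10 p53 targets (0 in the upper 5%), 0.18 for 10 FOXO and PPAR fasting genes (1), 0.22 for 11 hypoxia and ATF4 stress genes (2) and 0.01 for 10 immediate early genes (0). For the receptor's own partners it was 0.07 for chaperones (1), -0.12 for coregulators (0), 0.19 for steroid access and conversion (0) and 0.07 for the stress axis (0). Between the lists no test was made. In the comparison with Control their genes of smallest p were Bbc3 at 0.08, Cpt1a at -0.12, Adm at -0.23, Atf4 at 0.12 and Ier2 at 0.14, none with an unadjusted p under 0.05.

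**Figure D5:**
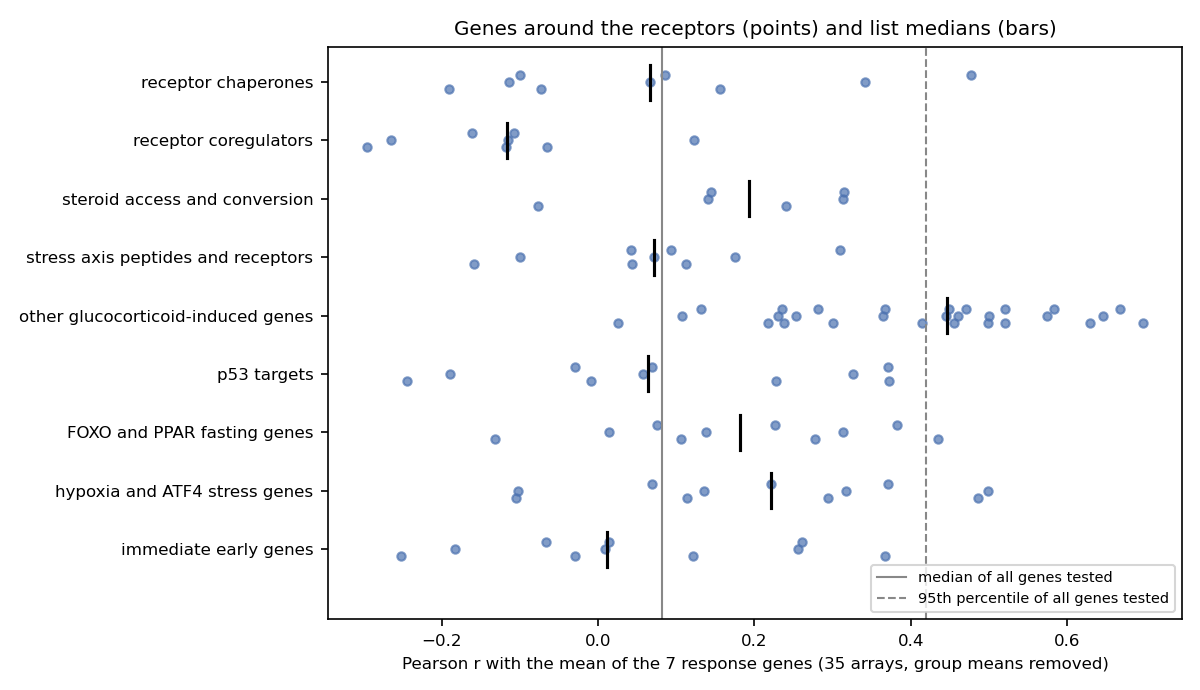
Pearson r of single genes (points) with the mean of the 7 response genes over 35 arrays after removal of group means (x axis), by list (rows), with the list median (black bar), the median of all genes tested (solid line, 0.08) and the 95th percentile (dashed line, 0.42). Other glucocorticoid-induced genes have all 28 points above 0, as have 9572 of all 15049 genes tested. Beyond the dashed line they have 15, and the lists other than this one have 0 to 2. The lists were chosen with earlier results of these data known.

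Marker RNA of some cell types and regions varied with some of the genes. Deviations of the 9 genes were correlated with the mean deviation of 13 lists of cell type and region markers (117 relations), of which 10 passed an adjusted permutation p of 0.05. Nr3c2 followed endothelial markers (r = 0.68, rho = 0.67, adjusted permutation p = 0.001, r = 0.67 without the 2 farthest arrays) and those of cortex, hippocampus and thalamus (r = 0.57, rho = 0.57, adjusted permutation p = 0.032). Nr3c1 followed neuronal markers (r = 0.65, rho = 0.65, adjusted permutation p = 0.005). Ddit4 followed those of astrocytes (r = 0.56), microglia and macrophages (r = 0.54) and neurons (r = 0.54), and Tsc22d3 those of astrocytes (r = 0.58), oligodendrocytes (r = 0.55) and microglia and macrophages (r = 0.54), with adjusted permutation p values of 0.032 to 0.037. Sgk1 ran against choroid plexus markers (r = -0.50, rho = -0.49, adjusted permutation p = 0.032). Many other genes followed the same markers as closely: 14.5% of all other genes had an r with neurons at or above that of Ddit4, 10.5% and 9.24% an r with astrocytes at or above those of Ddit4 and Tsc22d3, and 6.72% an r with neurons at or above that of Nr3c1. For the Nr3c2 relations the shares were 1.66% (endothelial cells) and 5.51% (cortex, hippocampus and thalamus), for oligodendrocytes and Tsc22d3 6.36%, for microglia and macrophages 2.85% (Tsc22d3) and 2.47% (Ddit4), and for Sgk1 and choroid plexus 0.0665% at or below its r. Pdk4, Zbtb16, Cdkn1a and Fkbp5 passed with no marker list. The part of these markers in the correlations among the response genes was not tested.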

How the data were processed

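Each of 36 arrays, 6 per group, measured 1 hypothalamus. The authors made log2 intensities by robust multi-array averaging (RMA, release not stated) and deposited them, and they were used as deposited. The study's methods describe probes regrouped by Entrez gene with a minimum of 7 per gene, whereas the deposited table follows the manufacturer's 35556 transcript clusters: 21218 name 1 gene, 1881 several and 12457 none. Clusters of 1 gene were used, and where a gene had several (1386 genes), the one of highest mean. The methods leave out 1 TNF array without naming it. Arrays of a group are separate mice, and batches of injection or dissection are not given in the sources.

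Genes were tested with limma 3.58.1 in R 4.3.3 (lmFit with 1 mean per group, eBayes with an intensity trend, Benjamini-Hochberg over 15049 genes, threshold 0.05, two-sided). Permutations (100000, within groups, two-sided) used Python 3.11.15, numpy 2.4.6 and pandas 2.3.3. These steps were tested on simulated data. The number of arrays limits the precision: the median SE of a log2 difference was 0.10. The members and gene lists were chosen with earlier results of these data known. Named were the 9 members, per list up to 3 genes of smallest p for the mean of the 5 treated groups, and per member the 2 genes of highest r, leaving out predicted genes, odorant, immunoglobulin and T cell receptor genes, and small RNAs. Alternatives covered the array set, the intensity minimum (none or 50), clusters per gene, quantile normalization, centring, array weights, the trend, the groups fitted, blocks by replicate number and by the letter that opens the array name, Control replicates 5 and 6, and leaving out single arrays.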

Additional observations from a re-analysis of the deposited data

Results flagged for a closer look

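In the IL-6 Low group, Pdk4 on replicate 5 was at a log2 intensity of 5.85, apart from the other 5 arrays, of which the nearest was at 5.52. The gap was 0.739 of the whole range of the group. Of 54 sets of arrays examined in this way (9 genes in 6 groups), 1 had such an array, and chance gives about 1 in 20. The same mouse had the second highest mean deviation of the 7 response genes from their group means (1.31), and Pdk4 is 1 of these 7. Without it the Pdk4 difference between IL-6 Low and Control was -0.42 (unadjusted p = 0.010, adjusted p = 1.00 by limma).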

How the results depend on the processing

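Comparisons of a pair of groups were run under 12 alternatives, the others without the one that fits only the groups compared, and each with every one of the 35 arrays left out. The number of genes with an adjusted p under 0.05, members included, was 0 in all of them. Of 54 member differences from Control, 31 changed sign under some alternative, the largest of them at -0.14 (Sgk1, mean of the 5 groups). Pdk4 kept an unadjusted p under 0.05 in 46 of 47 alternatives for IL-6 Low and in 44 of 47 for its combination with TNFα. Of the 36 pairs, 17 passed, with 11 to 19 when single arrays were left out, 11 without TNF + IL-6 Low replicate 1. The other glucocorticoid-induced genes in the upper 5% of r numbered 15, and 9 without Sgk1 or without Zbtb16 in the mean (added after seeing the data, as were all alternatives of this count and the leave-one-out runs of the pairs). The labels give replicate numbers no meaning beyond a number. Same-numbered arrays of different groups had a median correlation of deviations of 0.07 (-0.31 to 0.58, 36 of 85 pairs over 0.1). For other numbers it was lower, at -0.03 (104 of 425 over 0.1). Not every same-numbered pair deviated together, and the permutations took no account of the replicate number. With the replicate number as a block, 0 genes passed in every comparison and 21 pairs passed. The Pdk4 difference for IL-6 Low was -0.35, which this block cannot move because IL-6 Low and Control hold the same replicate numbers. With the letter that opens the array name as a block, 0 genes passed. The Pdk4 difference for IL-6 Low was again -0.35 (unadjusted p = 0.025, adjusted p = 1.00 by limma). This is the estimate without a block, so neither block checks its size. Precision is bounded by the 5 or 6 arrays in a group: the SE was 0.30 for Sgk1 against a median of 0.10 over all genes.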
